A study of Mus musculus with 4 samples.

Results

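The wild-type baseline consisted of 2 of the 4 RNA-sequencing samples in the series, selected by genotype label alone, and each sample was the total thymocyte RNA of 1 mouse. The other 2 samples, from mice lacking hnRNP L, entered no value given here. The labels repeat the same strain description for every sample, wild type and knockout alike. It names CD45.1, the LckCre transgene and the reporter allele Gt(ROSA)26Sortm4(ACTB-tdTomato,-EGFP)Luo on a mixed C57BL/6 stock. Because the wording is shared by all samples, it does not show which mice carried the transgene. LckCre is a Cre transgene driven by the promoter of the T cell kinase gene Lck, the reporter allele switches fluorescent proteins after recombination, and CD45.1 is an allele of the pan-leukocyte protein CD45. Whether the wild-type mice carried Cre, and how old they were and of which sex, is not given in the sources used here. The libraries are called wild type 1 and wild type 2, and where values are paired below the first belongs to wild type 1.

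Thymocytes are the developing T cells of the thymus. Precursors without CD4 and CD8 (double-negative cells) rearrange their T cell receptor beta genes, divide, and become CD4+ CD8+ double-positive cells, which rearrange the receptor alpha genes and are then selected on self-peptide and MHC. The survivors mature into CD4 or CD8 single-positive cells and leave the organ. Double-positive cells are the most numerous stage of a normal thymus.

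Ribosomal RNA was depleted with probes, a method that leaves transcripts without a poly(A) tail, such as histone mRNAs and small nucleolar RNAs, in the library. Fragments of 150 to 300 bp were amplified over 12 PCR cycles and sequenced on the SOLiD platform. The file headers state 99782558 and 122619310 mapped reads. Of these, 41.9% and 42.0% were counted in the transcripts kept, 1 per gene symbol for 22730 symbols. Levels are RPKM, that is reads divided by transcript length and by mapped reads, a scale made for comparing genes of different length. Whether it holds for RNAs shorter than the fragments was not tested. A transcript of 1000 nt with no read could still have an RPKM of up to 0.0301 and 0.0245, the value of 3 reads, and this limit covers counting error only. One group of 2 mice allows no test between conditions, so the difference between the mice is the only measure of error, and the labels do not say which libraries shared 1 of the 2 sequencing slides.

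The labelled cell type was checked against 6 thymocyte genes, and all were high in both libraries. Rag1, which encodes the catalytic subunit of the recombinase that cuts antigen receptor genes, had RPKM 457 and 462 (304133 and 377667 reads) and ranked 14 among the 20734 protein-coding genes. Dntt, the template-independent DNA polymerase that adds bases at receptor gene joins, had RPKM 416 and 390.0 and ranked 18. Cd8b1, which encodes the CD8 beta chain, followed at 372 and 383, on rank 20. Cd8a, the alpha chain gene, was at 232 and 263. Cd4, the coreceptor for MHC class II, was lower, at 97.5 and 119. Rag2, the second recombinase subunit, was the lowest of the 6 at 39.1 and 41.1. The largest difference between the mice in these 6 genes was that of Cd4, and none differed by 2-fold.

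Of all gene symbols, 9547 (42.0%) had an RPKM of at least 1 in both mice, the level called expressed here. Among protein-coding genes these were 9140 (44.1%). An RPKM of at least 10 in both was reached by 3407 coding genes, at least 100 by 114, and at least 1000 by 3. At the other end, 2899 coding genes had no read in either library. The median expressed coding gene had a mean RPKM of 7.57, and 10% of the expressed coding genes lay above 29.9. The protein-coding levels of the mice had a Pearson r of 0.997 on the log2 of RPKM plus 0.1 across 20734 genes, which are not independent replicates. The Spearman rho of these genes was 0.978. Across the 9140 expressed coding genes the Pearson r was 0.991.

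**Figure D1:**
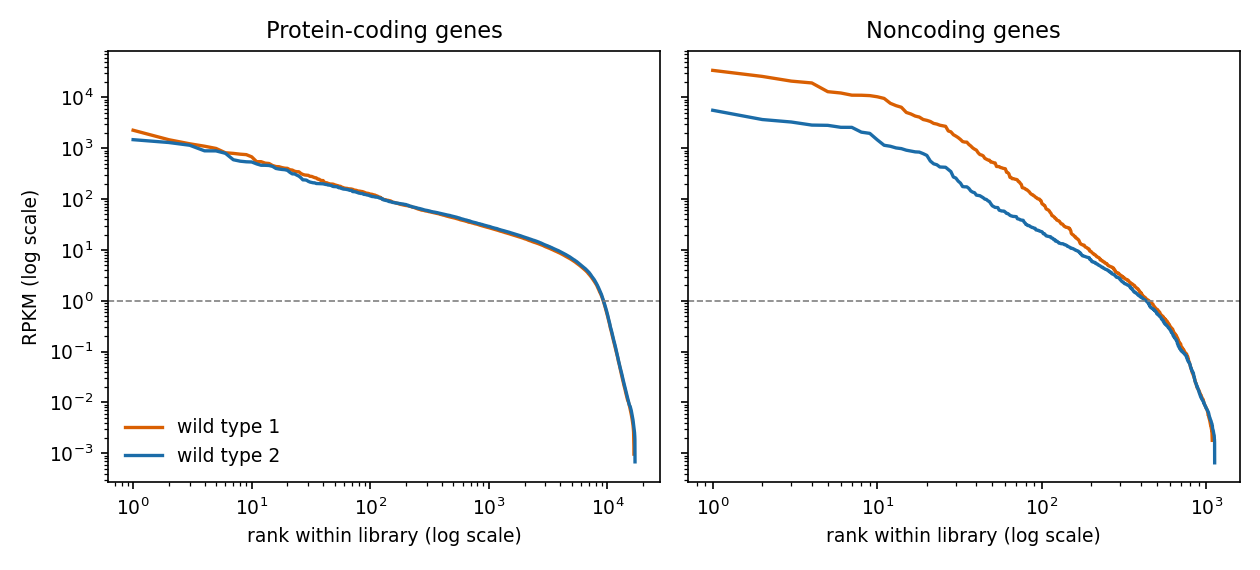
RPKM (log scale) of every gene with a read, ordered by rank within its library (log scale), for protein-coding genes (left) and noncoding genes (right). Orange is wild type 1, blue is wild type 2, and the dashed line is RPKM 1. The coding curves lie close together, apart from the first ranks, whereas the highest noncoding genes are higher in wild type 1, where Snord22 reaches 34001.

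By RPKM the protein-coding transcriptome was led by genes of DNA packaging, the actin cytoskeleton and T cell identity. The highest coding gene, Hist2h2bb, encodes histone H2B and lies at chr3:96073623-96074115 (mm9, plus strand); its RPKM was 2261 and 1475. Hist1h1a, a linker histone gene at chr13:23855537-23856283 (mm9, plus strand), had 1472 and 1145. Actb, the cytoplasmic beta actin gene, was next with 1224 and 1297. These were the only 3 coding genes with a level of at least 1000 in both mice.

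Of the 20 highest coding genes by RPKM, 8 were clustered, replication-dependent histone genes, 1 encoded a ribosomal protein and 11 were neither. Besides those already named, the histone genes were Hist1h1b (1096 and 887), Hist1h2bb (992 and 541), Hist1h2bm (792 and 557), Hist1h2bg (749 and 439), Hist1h4d (544 and 313) and Hist1h2ab (437 and 400.4). All 8 were higher in wild type 1.

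The 11 others held 5 genes of the T lineage. Tcf7, a transcription factor of T lineage commitment and of double-positive cell survival, was the highest transcription factor gene at 764 and 890, rank 5. Thy1, a glycoprotein anchored to the surface of all mouse thymocytes, had 501 and 594. Rag1, Dntt and Cd8b1, given above, completed the 5. The widest difference between the mice among these 5 was that of Thy1, with a log2 ratio of -0.24.

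General cell functions supplied the remaining 6. Actb was joined by Tmsb4x, a thymosin that binds actin monomers, at 816 and 796, and by Coro1a, an actin-binding coronin of leukocytes, at 545 and 492. Gnb2l1 (now named Rack1), a scaffold protein of the small ribosomal subunit, had 677 and 537. Tubb5, a beta tubulin, had 433 and 463. Eef2, the translocation factor of translation, had 402 and 378.

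**Figure D2:**
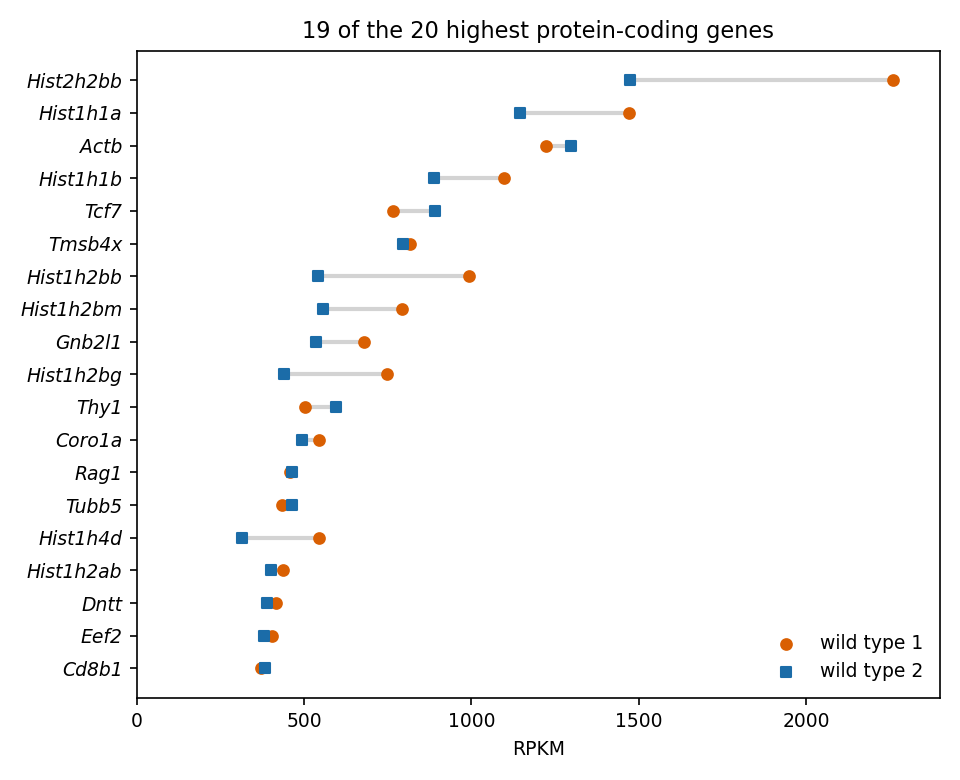
RPKM of 19 of the 20 protein-coding genes with the highest mean, ordered by that mean, with wild type 1 as orange circles and wild type 2 as blue squares, joined by a grey line. Hist2h2bb has the widest gap in RPKM, from 2261 to 1475, while the circles and squares of Rag1, Dntt and Cd8b1 nearly coincide.

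The top of the coding list did not hold most of the transcript mass. The 100 highest coding genes held 21.9% and 18.6% of the summed coding RPKM, and the 1000 highest held 52.1% and 49.4%. Without the clustered histone genes, the share of the 100 highest was 16.5% and 15.8%. Of the 100 highest coding genes, 25 were clustered histones, 13 were ribosomal protein genes and 62 were neither. These ranks are by RPKM, which was low beside the junction reads for 38 of 78 ribosomal protein genes, as described below.

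Coding genes of the highest level class were shorter and poorer in introns than those of the class below. Genes with a mean RPKM of 100 or more had a median transcript length of 1409 nt and 5 known junctions, against 2680 nt and 9 junctions for genes between 10 and 100. Of the 132 genes in the upper class, 33 (25%) had no known junction at all against 1.73% of the class below. Coding genes with no read were shorter still, with a median of 948 nt, and 52.8% of them had no known junction. Clustered histone genes, which lack introns, were at least 25 of the 33 genes without a known junction in the upper class. Medians of that class without them were not computed.

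Core promoter sequences are shown for 4 highly expressed genes of the T lineage and for the histone gene Hist1h1a, to illustrate the sequence features counted next. They were chosen with their levels known, and the highest coding gene, Hist2h2bb, does not have the TATAAA letters of Hist1h1a. The 60 bases directly before the annotated start are printed (RefSeq, GRCm38.p6), with CG dinucleotides in capitals for the first 4 and the letters TATAAA in capitals for the histone gene. They lie at chr2:101649533-101649592 (minus strand) for Rag1, chr19:41029215-41029274 (plus) for Dntt, chr4:129573642-129573701 (minus) for Lck, chr11:52283015-52283074 (minus) for Tcf7 and chr13:23763608-23763667 (plus) for Hist1h1a.
Rag1: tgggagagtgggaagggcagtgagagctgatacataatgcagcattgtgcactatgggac
Dntt: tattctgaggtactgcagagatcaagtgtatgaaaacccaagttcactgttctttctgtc
Lck: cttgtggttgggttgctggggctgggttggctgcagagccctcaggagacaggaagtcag
Tcf7: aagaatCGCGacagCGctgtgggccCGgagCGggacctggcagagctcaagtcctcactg
Hist1h1a: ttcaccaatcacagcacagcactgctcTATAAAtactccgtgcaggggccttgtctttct
The windows of Rag1, Dntt and Lck held no CG, and that of Tcf7 held 5.

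Over the 250 bases before the start, the CG dinucleotide was sparse in front of many lineage genes. The 15 double-positive genes with a promoter in the reference table had a median of 3, among them Rag1 with 3, Dntt with 2, Cd8a with 0 and Themis with 1. The 31 T cell receptor signalling genes had a median of 7, from 0 in front of Cd3d and 1 in front of Lck to 30 in front of Prkcq and 33 in front of Cbl. Expressed coding genes as a whole had a median of 17 (7432 genes) and those below the threshold a median of 4 (8443 genes). By contrast, the medians were 19 for the transcription factor list, 18 for the cell cycle list and 20.5 for the hnRNP and SR list. Counts above the median of the expressed genes stood in front of 4 of the 15 double-positive genes, Tdrd5 with 40, Rmnd5a with 29, Aqp11 with 23 and Bcl6 with 21, and of 10 of the 31 receptor signalling genes.

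The letters TATAAA were searched on the sense strand between 45 and 19 bases before the start. They stood in 8 of 77 promoters of the 100 highest coding genes (10.4%). Split by kind, 7 of 23 histone genes had them and 1 of 54 others (1.85%), against 0.996% of expressed coding genes and 2.31% of all 27025 promoters in the table. On the other strand the share among the 100 highest was 2.60%. A match is a description of the sequence and was not tested as a functional site.

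Markers of the cell types that thymocyte suspensions can hold fell into a clear order. The median of the members' mean RPKM was 82.9 for the 19 double-positive genes, 11.6 for the 24 mature single-positive genes, 3.13 for the 20 double-negative genes and 0.742 for 15 gamma-delta and innate-like T cell genes. Outside the T lineage it was 1.24 for 16 myeloid genes, 0.704 for 15 thymic stroma genes, 0.518 for 9 erythroid genes, 0.328 for 12 B cell genes and 0.0756 for 10 genes of adipose, parathyroid and lymph node tissue. The median over all gene symbols was 0.264. In these bulk samples fewer cells of a type and less RNA per cell cannot be told apart.

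Among double-positive markers 18 of 19 reached RPKM 1 and 17 reached 10. Ccr9, the chemokine receptor for the thymic chemokine CCL25, followed the recombinase and coreceptor genes with 174 and 185. Rmnd5a, a component of a ubiquitin ligase complex, had 159 and 175. Themis, an adaptor needed for positive selection, had 139 and 154. Arpp21 was at 81.2 and 85.1, and Aqp11, an aquaporin, at 82.3 and 83.5. Bcl6, a transcriptional repressor, was lower at 14.3 and 19.4, and Cd1d1, which presents lipids to natural killer T cells, was at 10.4 and 9.46. The single member below the threshold was Pdzk1ip1, with 0.124 and 0.0578.

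The double-negative list ran from Tcf7, with a mean RPKM of 827, down to 0.150. Tcf7 and Bcl11b, a zinc finger factor of T lineage identity with 37.1 and 50.6, are also known to stay on at later stages. Ptcra, the invariant chain of the pre-T cell receptor, had 14.2 and 18.4. Notch1, the receptor that drives entry into the T lineage, had 12.2 and 18.1, and Il2ra, the interleukin receptor chain that marks part of the double-negative cells, had 8.50 and 12.9. Markers of the earliest precursors were lower. Kit, the stem cell factor receptor, was at 1.75 and 1.94, Lyl1 at 0.384 and 0.512, Lmo2 at 0.353 and 0.302, and Bcl11a, the lowest, at 0.167 and 0.133.

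Genes of mature single-positive cells were detected with 23 of 24 members. Gimap6, a GTPase of lymphocyte survival, led them with 101 and 93.7. H2-K1, a classical MHC class I heavy chain, had 82.2 and 78.3, and Cd2, an adhesion receptor, 63.4 and 63.1. Cd5, a negative regulator of receptor signalling, was at 34.8 and 35.4. Ccr7, which guides selected cells to the medulla, had 27.5 and 25.1. S1pr1, the sphingosine receptor used for exit, had 10.2 and 12.6, and Klf2, the factor that induces it, 2.19 and 2.18. Foxp3, which marks regulatory T cells, was the lowest at 0.245 and 0.383.

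Innate-like T cell markers were dominated by Gzma, a granule protease, with 37.2 and 32.4. Il2rb, at 9.87 and 9.17, is also a mature marker, and Id2 had 9.68 and 7.80. Sox13, a factor of gamma-delta cells, had 1.70 and 1.73, whereas Zbtb16, the factor PLZF of natural killer T cells, had 0.564 and 0.743. Il17a had no read in either library.

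Marker transcripts of other cell types were detected. Expressed were 10 of 16 myeloid, 4 of 9 erythroid and 5 of 15 stroma genes. So were 2 of 12 B cell genes and 1 of 10 adipose, parathyroid and lymph node genes. Of all gene symbols 42.0% were expressed, and only the myeloid list lay well above that share. Summed RPKM was 130 and 137 for the myeloid, 99.8 and 95.1 for the erythroid and 43.5 and 44.1 for the stroma list. It was 11.8 and 12.8 for the B cell list and 1.84 and 3.78 for the adipose, parathyroid and lymph node list. The double-positive list summed to 2432 and 2545. The part of other cell types in the levels of genes that several cell types share was not tested. S100a8 and S100a9, the calprotectin genes of neutrophils, had 49.8 and 51.9, and 25.6 and 31.6. Lyz2, the lysozyme of myeloid cells, was at 30.6 and 30.4. Csf1r, the receptor that defines macrophages, was under the threshold at 0.879 and 0.909. Adult beta globins were higher than the erythroid list shows. Hbb-b2 had 38.1 and 34.6 and Hbb-b1 36.0 and 31.0, but Beta-s, a further adult beta globin that the list does not hold, had 198 and 176, more than the summed erythroid list. The alpha globin gene was listed at 2 places, with 11.5 and 13.5 at Hba-a1_dup1 and 9.47 and 9.25 at Hba-a1_dup2. The first of these had 2005 and 2453 junction reads, a yield per RPKM 24.3-fold above the median gene. How reads were divided between such copies was not tested. In the B cell list Cd79b was at 6.94 and 7.16, while Pax5, the factor that defines B cells, was at 0.108 and 0.162. Of the stroma list, Pecam1, an endothelial protein also made by leukocytes, had 20.2 and 22.3. Ccl25, the epithelial chemokine that binds CCR9, had 8.66 and 7.25, and Foxn1, the master factor of thymic epithelium, 0.180 and 0.270.

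Over 2-fold differences between the mice, among genes with at least 20 reads in both, were found in 5 of 48 genes on the lists of other cell types and in 0 of 71 on the T lineage lists, against 1.67% of all 12645 genes compared. Mpo, a granulocyte peroxidase, had 0.453 and 1.01. Slc4a1, the red cell anion exchanger, had 0.119 and 0.281, and Krt14, an epithelial keratin, 0.260 and 0.128. Fabp4, the fatty acid carrier of fat cells, had 1.20 and 2.62, and Adipoq, a fat cell hormone, 0.187 and 0.397. Of these 5, 4 were higher in wild type 2 and Krt14 was higher in wild type 1. Their reads ran from 23 for Adipoq in wild type 1 to 315 for Mpo in wild type 2. Over all genes the share apart depended on reads, with 10.4% at 1 read or more in both and 1.14% at 100 or more. The 2 groups of lists were not matched for reads.

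The T cell receptor machinery was expressed nearly in full, with 37 of 38 members at an RPKM of at least 1 and 10 at 100 or more. Lck, the kinase that phosphorylates the receptor's signalling chains, had 306 and 313. Of the CD3 and zeta chains that carry those motifs, Cd3g had 262 and 239, Cd247 had 141 and 153, and Cd3d had 125 and 111. Cd3e was the lowest of the 4 at 32.5 and 51.5. Lat, the membrane scaffold below the receptor, was at 201 and 194, and Ptprc, which encodes CD45, at 150.1 and 176. Zap70, the kinase that docks on phosphorylated chains, had 41.0 and 38.3. Csk, the kinase that restrains Lck, had 22.6 and 21.6. Plcg2, a phospholipase used mainly by B cells, closed the list with 0.791 and 1.22.

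V(D)J recombination joined very high and low genes in 1 pathway. After Rag1 and Dntt came H2afx (now H2ax), the histone variant marked at DNA breaks, with 131 and 110. Among the end-joining genes, Xrcc6, which encodes Ku70, had 44.6 and 46.7, whereas Xrcc5, which encodes its partner Ku80, had 9.19 and 9.54. Lig4, the ligase of this pathway, had 27.6 and 32.0, Xrcc4, its cofactor, 5.96 and 6.15, and Dclre1c, the hairpin-opening nuclease Artemis, 7.26 and 7.94. The related polymerases were far below Dntt, with Polm at 1.86 and 1.89 and Poll at 0.974 and 0.716.

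Of 64 transcription factors, 53 were expressed. Below Tcf7, Ets1 had 178 and 203, Satb1, a chromatin organizer of thymocytes, 169 and 201, and Myb 93.6 and 107. Ets2 followed with 74.1 and 102, Ikzf1, the Ikaros gene, with 82.9 and 85.8, and Nfatc3, a calcium-responsive factor, with 71.3 and 81.4. Gata3, required for T cell commitment and for CD4+ cells, was much lower at 4.54 and 5.0. Zbtb7b, which directs the CD4 fate, had 4.61 and 4.74, and Runx3, which directs the CD8 fate, 1.15 and 1.35. Of the 64, 14 were higher in wild type 1, as were 4146 of all 12645 genes compared.

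Among receptors for migration 13 of 18 were expressed, and among cytokine receptors and JAK-STAT genes 29 of 30. Cxcr4, the receptor of cortical thymocytes for CXCL12, had 160 and 167, close to Ccr9. Selplg, the selectin ligand used by precursors to enter the thymus, had 49.5 and 55.1. Ccr4 had 11.3 and 8.58, and Cxcr3, found on effector cells, 0.891 and 0.730. In the cytokine list Ifngr1, an interferon gamma receptor chain, led with 110 and 109. Il2rg, the common gamma chain, had 37.4 and 40.8, while Il7r, its partner for interleukin-7, had only 7.61 and 9.13. Socs1, an inhibitor of cytokine signalling, was at 37.4 and 31.9.

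Notch pathway genes were modest, with 19 of 24 expressed and a list median of 3.57. The highest was Adam10, the protease that cleaves activated Notch, at 26.5 and 31.8. Rbpj, the DNA-binding partner of Notch, had 2.53 and 2.72, and the target genes Hes1 and Dtx1 had 1.42 and 1.49, and 2.19 and 3.44. Among apoptosis genes Mcl1 was at 83.9 and 87.5. Of the proapoptotic members, Bak1 had 19.98 and 18.6, Bax 7.38 and 8.76, and Bcl2l11, the gene of the death inducer BIM, 7.34 and 9.75.

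Proliferation genes were well represented, with 35 of 39 members expressed and 31 at an RPKM of at least 10. Top2a, the topoisomerase of dividing cells, had 117 and 131. Ccnd3, the cyclin that drives division at the pre-T cell receptor checkpoint, had 119 and 123, and Mki67, a marker of cycling cells, 75.2 and 109. Mcm2, a replicative helicase subunit, had 50.4 and 55.5. The inhibitor Cdkn1b was at 45.5 and 45.4, while Cdkn1a, a p53 target, was at 1.15 and 1.18. Cdkn2a, at 0.0216 and 0.132, and Ccna1, a germ cell cyclin with 0 and 0.00521, were near the counting limit.

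RNA-binding proteins of splicing held 45 expressed genes among 55. The highest were Hnrnpab with 156 and 177, Hnrnpl with 156 and 158, and Hnrnpu with 142 and 167. Hnrnpl encodes the splicing regulator that the study deleted in its other mice, and in wild-type cells it ranked 66 among coding genes. Srsf2, a serine and arginine-rich splicing factor, had 92.3 and 95.6. Neuron-specific members were near 0, with Rbfox1 at 0.0309 and 0.0189 and Elavl4 at 0.0247 and 0.0161, and Khdrbs2 had no read. Hnrnpa1, which is not neuron-specific, was also under the threshold at 0.85 and 0.69. These levels are by RPKM, which was low beside the junction reads for some genes, as described below.

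Housekeeping programs differed in how completely they were detected. The actin cytoskeleton list had 29 of 36 members expressed and a median of 36.9, with Cfl1, the actin-severing cofilin, at 353 and 368 and Pfn1, a profilin, at 235 and 209. Of the antigen presentation list 21 of 24 were expressed. B2m, the light chain of MHC class I, had 162 and 179, and Psmb8, an immunoproteasome subunit, 125 and 134, whereas Psmb11, the thymoproteasome subunit of cortical epithelium, had 0.838 and 0.570. Of the translation factors 23 of 24 were expressed, with Eef1a1 at 319 and 238. DNA methylation and chromatin genes counted 21 of 23, led by Ezh2, the methyltransferase of Polycomb repression, at 77.9 and 81.9. Dnmt1, the maintenance DNA methyltransferase, had 33.5 and 45.5, and Dnmt3l, a germ cell cofactor, 0.0480 and 0.0244. The list of histone variants, which also holds high mobility group chromatin proteins, counted 14 of 16, with a median of 4.43. The variant H2afy had 90.5 and 97.4, and the high mobility group gene Hmgb1 3.28 and 4.38. The junction yield per RPKM of Hmgb1 was 31.5-fold above the median gene. Glycolysis genes were the least complete of these lists by RPKM, with 15 of 27 expressed and a median of 3.40, from Pkm2 at 61.5 and 66.8 down to Slc2a2, a liver glucose transporter, at 0 and 0.00952. Gapdh counts among the 12 others at 0.179 and 0.159, although its junctions carried 2284 and 3431 reads.

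Families of paralogs or of partner subunits were compared within each library, since their members share a common scale. Rag1 and Rag2 are partner subunits and not paralogs, and Cd247 was grouped with the CD3 chains as a partner. The same gene led in both mice in all 51 families, which held 176 genes. The leader carried at least 90% of its family's summed RPKM in both mice in 17 families, 50 to 90% in 25, and under 50% in at least 1 mouse in 9. In 12 families exactly 1 member was expressed by RPKM, among them the actins and the CD1d genes. Reads per known junction were 90.4 and 98.2 for Actg1, against 6781 and 7244 for Actb. For Cd1d2 they were 12.6 and 12.4, against 21 and 19 for Cd1d1.

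Several families were held mostly by 1 member on the RPKM scale. Bcl11b held 99.5% and 99.7% against Bcl11a. Tcf7 was 24.7-fold and 20.6-fold above Lef1, which had 30.9 and 43.2, while Tcf7l2 and Tcf7l1 were at most at 0.356. By reads per known junction Tcf7 was 12.2-fold and 9.58-fold above Lef1. Among Src kinases Lck was 19.8-fold above Fyn (15.5 and 21.4) in wild type 1 and 14.7-fold above it in wild type 2. Fgr, Lyn, Blk, Src and Yes1 lay between 0.154 and 1.86. Rag1 was 11.7-fold and 11.2-fold above Rag2 by RPKM, although both subunits act in 1 complex. By reads per known junction the ratio was 3.44 and 1.91.

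Other families were shared between members. In the STAT family the leader held 27.2% and 28.0%: Stat5b led with 35.5 and 39.7, and Stat6 had 23.9 and 23.6. Ikzf1 held 62.4% and 60.5% of the Ikaros family, with Ikzf3 at 25.7 and 31.1 and Ikzf2 at 16.8 and 16.9. Jak1 had 62.8 and 62.0, Jak2 18.3 and 20.2, and Jak3, which works with the common gamma chain, only 1.67 and 1.74. Of the survival proteins, Bcl2l1, which protects double-positive cells, had 56.5 and 55.2, against 3.15 and 3.38 for Bcl2, which is a feature of the other stages.

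Some leads were within error. Lfng, a glycosyltransferase that tunes Notch, was 1.03-fold above Mfng in wild type 1 (95% counting interval 0.970 to 1.09) and 1.06-fold in wild type 2 (1.00 to 1.12). For the glucose transporters Slc2a1 and Slc2a3 the ratio was 1.30 (1.21 to 1.40) in wild type 1 but 1.00 (0.939 to 1.07) in wild type 2. Ldhb was 1.09-fold and 1.07-fold above Ldha, and the counting intervals excluded 1 in both mice. For 3 families the known junctions gave the opposite order over both mice. Rod1 (now Ptbp3) had RPKM 43.5 and 48.6 against 33.8 and 44.97 for Ptbp1, but its reads per junction were 0.859 and 0.690 of those of Ptbp1. Celf1 and Celf2, at RPKM ratios of 1.06 and 1.11, had junction ratios of 0.709 and 0.792. Tet3 was 1.57-fold and 1.71-fold above Tet1 by RPKM, with junction ratios of 0.787 and 1.06.

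**Figure D3:**
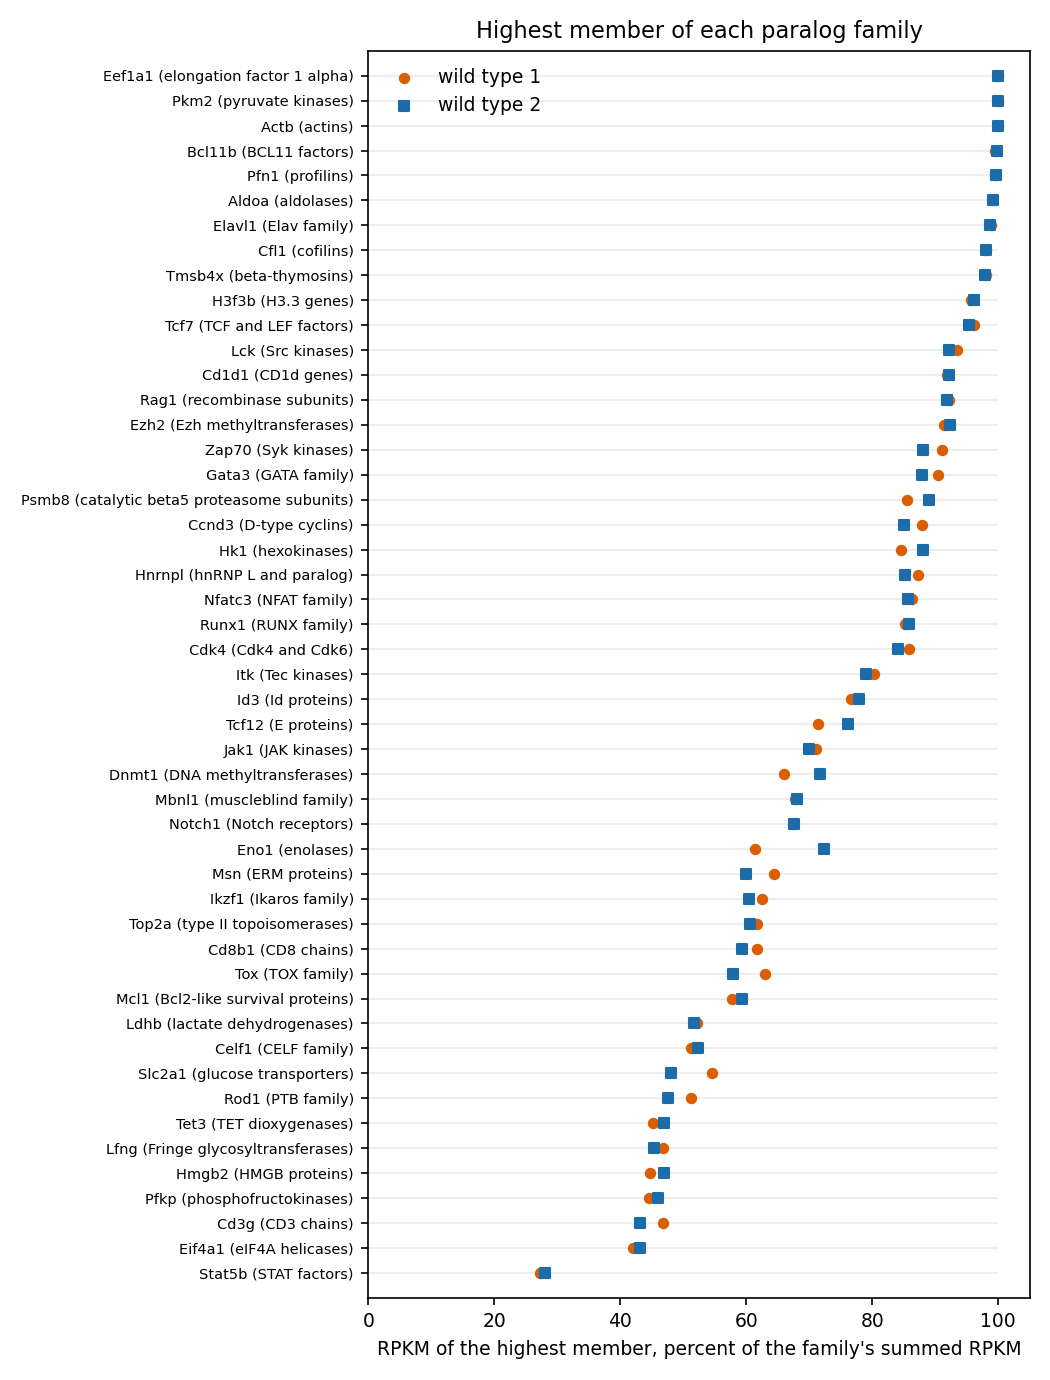
Share of each family's summed RPKM held by its highest member, in percent, for 49 of the 51 families ordered by that share, with wild type 1 as orange circles and wild type 2 as blue squares. Shares run from near 100 for Eef1a1 and Actb down to 27.2 and 28.0 for Stat5b, and the mice lie close together in most families.

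RPKM and junction reads diverged for a set of housekeeping genes. Across 7706 genes with at least 2 known junctions and at least 100 junction reads, the levels followed each other with a Spearman rho of 0.852, a description across genes of the same libraries. In 130 of them (1.69%) the junction reads per RPKM were at least 10-fold above the median gene. The minimum of 100 junction reads removes genes of low junction yield, so deviations to the other side were not counted. Gapdh, the glycolytic enzyme often used as a reference transcript, had only 22 and 24 reads in the transcript table (RPKM 0.179 and 0.159), on rank 11249 of the coding genes. Its 6 known junctions carried 2284 and 3431 reads.

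The same held for other abundant proteins. Tpt1, the translationally controlled tumor protein, ranked 6 of 7706 by reads per junction but 1086 by RPKM, with 29.4 and 20.9. Rpl23a had RPKM 0.0895 and 0.131 with 2545 and 3900 junction reads. Sumo2, a small protein modifier, had no read in the transcript table and 294 and 434 junction reads. Actg1, the gamma actin gene, had RPKM 0.180 and 0.293 with 452 and 491 junction reads. In each of these genes a low RPKM stood beside many spliced reads.

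Genes with pseudogenes, which are often processed copies of an mRNA, were more frequent in the set. Of genes with no pseudogene named after them 1.04% were 10-fold or more above the median yield, against 10.3% with 1, 35.2% with 2 or 3, and 52.9% with 4 or more. Among ribosomal protein genes 38 of 78 (48.7%) were. The file headers state a minimum mapping quality of 10, and the part of multiply placed reads in these values was not tested. Some paralog shares also differed between the readouts. H3f3a, which encodes the same histone as H3f3b, had RPKM 3.86 and 3.57 against 84.8 and 89.6, but 166 and 255 reads per junction against 360 and 366. Cd1d2 had RPKM 0.926 and 0.800, with 12.6 and 12.4 reads per junction against 21 and 19 for Cd1d1.

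**Figure D4:**
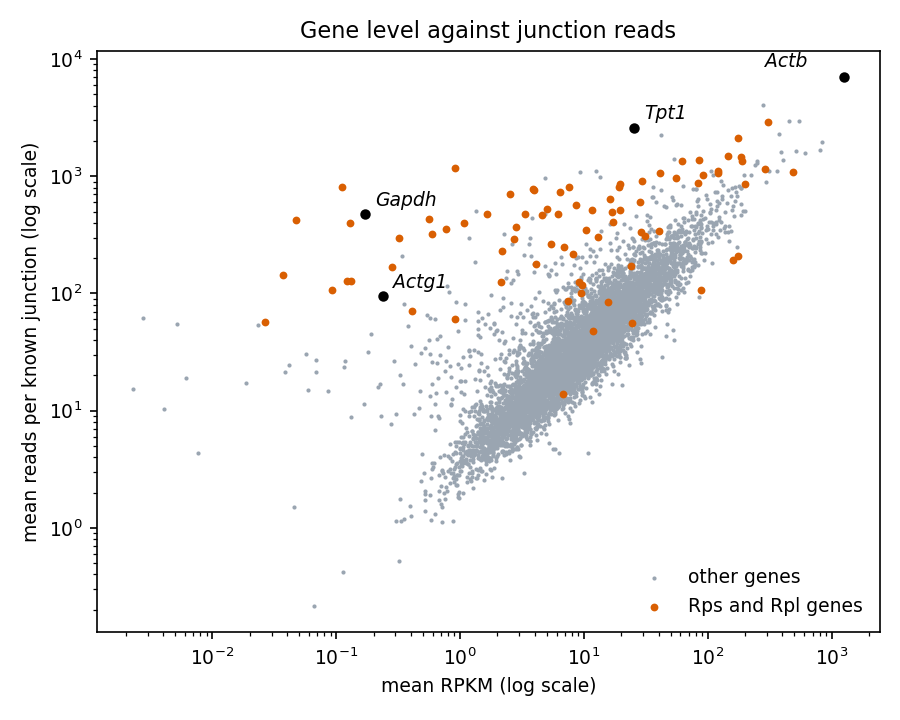
Mean reads per known junction against mean RPKM (both log scale, mean of the 2 wild types), 1 dot per gene, for genes with at least 2 known junctions, 100 junction reads and a read in the transcript table, with Rps and Rpl genes in orange. Most genes form a diagonal band, and Gapdh, Actg1, Tpt1 and many ribosomal protein genes lie above it at low RPKM.

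The highest levels of all belonged to noncoding RNAs. Of the 16 genes with an RPKM of at least 1000 in both mice, 13 were small noncoding RNAs (transcripts under 400 nt). Small nucleolar RNAs of the box C/D class, named Snord, guide ribose methylation of ribosomal RNA, and they made up 7 of the 8 highest noncoding genes. The mature RNA carries a C box near its start and a D box near its end, held together by bound proteins. The 4 highest are printed because they lead the whole table (GENCODE M21, GRCm38), with TGATG (and a following A where present) in the first part and CTGA in the last 20 bases in capitals.
Snord22: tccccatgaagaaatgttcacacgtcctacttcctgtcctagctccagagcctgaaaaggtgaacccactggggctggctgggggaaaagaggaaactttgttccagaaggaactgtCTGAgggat
Snord35a: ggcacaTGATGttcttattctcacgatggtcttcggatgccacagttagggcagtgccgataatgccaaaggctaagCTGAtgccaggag
Snord34: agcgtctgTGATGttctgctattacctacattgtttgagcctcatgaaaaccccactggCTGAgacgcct
Snord104: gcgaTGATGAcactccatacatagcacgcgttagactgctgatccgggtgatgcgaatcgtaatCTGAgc
Of the 15 Snord genes among the 20 highest noncoding genes, 15 held CTGA there and 14 held TGATG, all but Snord22.

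These RNAs differed widely between the 2 libraries, 1 per mouse. Snord22, at chr19:8800356-8800481 (mm9, plus strand), had RPKM 34001 and 2854. Snord35a had 25856 and 2821, Snord34 had 20899 and 5582, and Snord104 had 19231 and 2072. Rmrp, the RNA of the RNase MRP enzyme and the only other kind among the 8, had 12953 and 3669. Snord55 followed with 10844 and 2580, Snord35b with 12204 and 1145, and Snord100 with 9544 and 3280. All of the 20 highest noncoding genes were higher in wild type 1.

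Mammalian snoRNAs are usually cut from introns of host genes, many of which encode parts of the translation machinery. By the files' coordinates, 18 of the 20 highest noncoding genes lay inside a longer gene on the same strand. Snord35a, Snord34, Snord32a and Snord33 lay in Rpl13a, which had RPKM 137 and 103 and 6906 and 8175 junction reads. Snord96a and Snord95 lay in Gnb2l1, and Snord22 in Snhg1, a noncoding host gene with RPKM 27.9 and 38.5. Snhg1 had 461 and 1006 junction reads, while its Snord22 was 11.9-fold higher in wild type 1. Over all 72 host genes compared, the median log2 ratio of wild type 1 over wild type 2 was -0.04. Over 2-fold apart were 6 of the 72 (8.33%, against 1.67% of all genes), all higher in wild type 1, and all among the 14 hosts whose kept transcript was noncoding. Gas5 had RPKM 2769 and 560.1 with 1161 and 1684 junction reads. Rabggtb, named for a protein, had 126 and 16.8 on a kept noncoding transcript, with 330 and 373 junction reads.

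Small noncoding RNAs took 6.57% of the counted reads in wild type 1 (95% Clopper-Pearson interval 6.560 to 6.575%) and 1.09% in wild type 2 (1.088 to 1.093%). These intervals cover counting error only and not the difference between the mice. On the RPKM scale, the 100 highest genes of any kind held 69.4% of the summed RPKM in wild type 1 and 34.0% in wild type 2. Genes of the clustered histone class took 2.11% and 1.39% of the reads. The cause of these differences was not tested.

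Between the mice, 211 of 12645 genes were over 2-fold apart (1.67%), 157 higher in wild type 1 (1.24%) and 54 higher in wild type 2 (0.427%). Of the snoRNA and scaRNA genes 89 of 93 were among them, all higher in wild type 1, with a median ratio of 8.66. Of the clustered histone genes 12 of 64 were, again all higher in wild type 1, with a median ratio of 1.55. Coding genes outside that class numbered 71 of 12014 (0.591%).

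Of the coding genes with at least 100 reads in both mice, the 5 with the widest gaps toward wild type 1 were histone genes: Hist4h4 with 165 and 46.8, Hist1h3g with 185 and 78.3, Hist1h3f with 246 and 106, Hist1h3a with 159 and 68.4, and Hist1h4h with 280 and 121. The 5 with the widest gaps toward wild type 2 were of several kinds. Car3, a carbonic anhydrase abundant in fat, had 0.734 and 2.02. Fn1, the fibronectin of extracellular matrix, had 1.02 and 2.74, and Scd1, a desaturase of lipid synthesis, 1.05 and 2.65. Sec23b, a coat protein of transport vesicles, had 5.40 and 14.3, and Dcun1d1, a factor of cullin neddylation, 1.47 and 3.70. Fabp4 and Adipoq moved in the same direction as Car3 and Scd1. Lep, another fat cell hormone, went the other way at 0.0123 and 0.0025, on 4 reads and 1 read. Of the 10 members of the adipose, parathyroid and lymph node list, 3 were higher in wild type 1. The whole list summed to 1.84 and 3.78. Fabp4 alone had 1.20 and 2.62. The parathyroid genes Gcm2 (0.0104 and 0.0170) and Pth (0.0559 and 0.0455) went opposite ways on at most 6 reads a library, and Acta2, a smooth muscle actin, was at 0.214 and 0.160. The part of non-thymocyte tissue in these differences was not tested.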

How the data were processed

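RNA from total thymocytes of 2 wild-type mice was analysed, 1 library per mouse; the 2 knockout libraries were not used. For each library the authors deposited raw read counts for RefSeq transcripts, their ratio to transcript length in nt, and RPKM. Only primary alignments of mapping quality 10 or more were counted, and RPKM was scaled by mapped reads, per the file headers. Both derived columns were recomputed from the counts and matched. A deposited table per library lists read counts of known and putative exon junctions. The build is mm9, per the submitters' processing notes. Which aligner was used, and whether counting used strand, is not given in the sources used here, so reads of genes that overlap on opposite strands may not be told apart.

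Tables held 28283 rows for 22730 symbols, 3580 with more than 1 row; the transcript with most reads summed over both libraries was kept. Symbols are printed as deposited, and 21271 were matched by accession to current genes. Protein-coding means an NM_ accession. Known junction reads were summed per symbol and divided by its known junctions. Ratios between genes carry exact 95% counting intervals; PCR copies are not independent molecules, so these cover counting error only. No test between groups was possible. Levels with 0 counts take 3 reads as the limit. The functions for choosing transcripts and calling 2-fold differences were tested on simulated data. Python 3.11.15, pandas 2.3.3, numpy 2.4.6, scipy 1.17.1 and matplotlib 3.10.9 were used.

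The libraries, the 24 gene lists (571 symbols, 564 matched), the 51 families and the rule for naming genes were chosen with earlier results of these data known. Named were the 20 highest coding and 8 highest noncoding genes, leading, lowest and over 2-fold members of each list, family members, and the 5 coding genes furthest apart between the mice in each direction with at least 100 reads; some genes named by this rule are not reported here. Genes in the junction and host comparisons and symbol families were chosen after their values were seen. Alternatives tried were other kept transcripts, other scalings and filters, small noncoding RNAs left out, each library alone, another pseudocount and the junction readout.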

Additional observations from a re-analysis of the deposited data

How the results depend on the processing

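No paired analysis was possible because only 1 group of 2 libraries was described. The 9547 expressed genes became 3561 at an RPKM of at least 10, and stayed within 1.5 times under the other settings (9705 and 9658 with wild type 2 or wild type 1 alone). The 100 highest genes held 57.8% of the mean RPKM of both mice, 21.5% with small noncoding RNA genes left out, and 34.0 to 69.4% with 1 library each. The 1.67% of genes over 2-fold apart became 0.776% without small noncoding RNA genes, 10.4% at 1 read or more in both, and 1.14% at 100 reads. The 51 families with a common leader became 50 with the transcript of highest RPKM and 44 when members under RPKM 10 were ignored, some families then having none. By junction reads, 38 of the 51 ratios between the 2 highest family members kept their sign but moved by more than the spread between the mice. Another 10 moved by less. In all, 4 ratios changed sign: by junction reads the log2 ratio was -0.41 for Rod1 over Ptbp1, -0.41 for Celf1 over Celf2 and -0.084 for Tet3 over Tet1, and with the transcript of highest RPKM it was -0.017 for Celf1 over Celf2. The cause was not tested. With 1 library, neither the difference between mice nor a common leader can be computed.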

Other observations

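Gene families defined by symbol, chosen after their values were seen, ranged from undetected to almost fully detected. Of 1130 olfactory receptor genes 0 reached an RPKM of at least 1 in both mice, and 787 had no read in either. The highest, Olfr531, had 0 reads in wild type 1 and 849 in wild type 2 (RPKM 7.57). Likewise 0 of 384 vomeronasal receptor genes and 0 of 40 Hox genes passed, and 1 of 104 keratin and keratin-associated genes did (Krt18, with 3.54 and 3.35). At the other extreme stood mitochondrial ribosomal proteins with 74 of 76, complex I subunits with 40 of 42, proteasome subunits with 38 of 40, and the lymphocyte GTPases of the GIMAP family with 8 of 8. Zinc finger genes named Zfp were mostly expressed, 242 of 364, led by Zfp207 at 51.9 and 60.7. Solute carriers stood at 143 of 347 (41.2%), close to the 42.0% of all genes, and cytosolic ribosomal proteins at 64 of 85, with the limit on their RPKM given above. Of 750 microRNA gene rows 50 passed. Mir181b-2, a member of the microRNA family known for setting receptor sensitivity in thymocytes, had RPKM 64.7 and 22.1, but such rows count hairpin fragments in libraries of 150 to 300 bp and not mature microRNAs.

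On the X chromosome 269 of 994 coding genes (27.1%) were expressed, against 8871 of 19725 (45%) on autosomes. Among autosomes the share ran from 33.3% on chromosome 7 to 51.8% on chromosome 12. The median expressed X-linked gene had 0.846 and 0.852 of the level of the median autosomal gene. None of the 15 Y-linked coding genes was expressed. Xist, the noncoding RNA of the inactive X chromosome, had RPKM 32.4 and 38.8, while the Y-linked Eif2s3y had 14 reads and 1 read, and Ddx3y 17 reads and 1 read. The labels give no sex.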
